A study of Homo sapiens with 4 samples.

Results

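The EGFR family was described by 8 genes, 3 receptors (EGFR, ERBB2 and ERBB3) and 5 ligands (AREG, EREG, HBEGF, TGFA and EPGN), out of 60617 gene IDs in the expression table. The genes were fixed by name and found by Ensembl ID, and all 8 were present. Their transcripts were measured by RNA-seq in T24 and 5637, 2 established lines of human bladder carcinoma. There were 4 libraries, 1 per group, so the error of values within a line could not be estimated. The groups were T24 with 60 µM protodioscin, T24 without it, 5637 with 70 µM protodioscin and 5637 without it, each for 6 h. Protodioscin is a steroidal saponin of plants. The titles of the samples give the doses in micromolar and the treatment protocol gives the same figures in millimolar, and the micromolar unit was used. All cells were grown in RPMI medium with heat-inactivated serum. No vehicle is named for the untreated cells.

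EGFR, ERBB2 and ERBB3 are receptor tyrosine kinases that signal as pairs. EGFR binds soluble ligands of the EGF family, ERBB3 binds neuregulins and has little kinase activity of its own, and ERBB2 has no known ligand and acts as the partner of the others. AREG, EREG, HBEGF, TGFA and EPGN are made as membrane proteins and are released by proteases such as ADAM17. In urothelium, EGFR is found mainly in the basal layer, and its ligands take part in regrowth after injury.

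The members lie on several chromosomes of GRCh38, and 3 of the ligands are neighbours. In GENCODE 29, EGFR (ENSG00000146648) spans 55019021 to 55211628 on chromosome 7, ERBB2 (ENSG00000141736) spans 39687914 to 39730426 on chromosome 17, and ERBB3 (ENSG00000065361) spans 56076799 to 56103505 on chromosome 12. EPGN (ENSG00000182585), EREG (ENSG00000124882) and AREG (ENSG00000109321) follow each other on chromosome 4, starting at 74308473, 74365143 and 74445134. EPGN and EREG are 49.8 kb apart and EREG and AREG 56.4 kb apart, with 0 protein-coding genes between them. HBEGF (ENSG00000113070) spans 140332843 to 140346631 on chromosome 5 and TGFA (ENSG00000163235) spans 70447280 to 70554193 on chromosome 2. The libraries do not mark strand, and exons of EGFR overlap EGFR-AS1, which was listed at 0 in all 4 libraries. Exons of ERBB2 overlap MIEN1, at 7.38 to 12.4 FPKM, and PGAP3, at 2.15 to 3.39 FPKM, on the other strand. ERBB3 shares exons with AC034102.2 on its own strand, which was at 0 to 0.0576 FPKM.

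The stretches of 250 bases before the start sites of the 4 ligands detected in both lines are shown, since all 4 had lower levels in treated T24. They come from RefSeq (GRCh38.p14) and are written 5′ to 3′ on the strand of the gene. AREG is at chr4:74444886-74445135 (plus strand), EREG at chr4:74364895-74365144 (plus strand), HBEGF at chr5:140346604-140346853 (minus strand) and TGFA at chr2:70553827-70554076 (minus strand, the first of 2 start sites listed). The start sites are those of RefSeq and differ from the GENCODE spans given above. The TGFA window lies wholly inside its GENCODE span, and the windows of AREG, EREG and HBEGF overlap the starts of theirs. Capitals mark matches, on either strand, to the 5 motifs searched.
AREG: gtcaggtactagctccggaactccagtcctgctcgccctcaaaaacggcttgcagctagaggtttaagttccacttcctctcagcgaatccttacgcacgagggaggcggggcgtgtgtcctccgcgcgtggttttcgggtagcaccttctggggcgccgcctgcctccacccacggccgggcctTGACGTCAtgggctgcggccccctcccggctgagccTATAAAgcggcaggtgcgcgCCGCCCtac
EREG: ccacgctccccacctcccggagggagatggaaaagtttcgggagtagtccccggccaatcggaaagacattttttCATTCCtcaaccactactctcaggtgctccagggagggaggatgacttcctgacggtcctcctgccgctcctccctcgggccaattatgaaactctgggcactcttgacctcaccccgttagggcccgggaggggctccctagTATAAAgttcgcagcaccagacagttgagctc
HBEGF: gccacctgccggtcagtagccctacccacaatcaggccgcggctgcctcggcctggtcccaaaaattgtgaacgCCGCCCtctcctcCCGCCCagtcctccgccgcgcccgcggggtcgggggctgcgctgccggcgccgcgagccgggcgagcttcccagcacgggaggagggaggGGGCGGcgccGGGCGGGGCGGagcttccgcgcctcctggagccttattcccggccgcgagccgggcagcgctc
TGFA: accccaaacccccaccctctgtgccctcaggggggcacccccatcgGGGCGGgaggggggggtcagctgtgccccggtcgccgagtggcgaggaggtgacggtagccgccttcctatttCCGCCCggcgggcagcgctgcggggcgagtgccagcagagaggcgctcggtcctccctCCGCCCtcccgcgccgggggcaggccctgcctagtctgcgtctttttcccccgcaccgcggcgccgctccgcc
The motifs were picked with these sequences in view. The cyclic AMP response element TGACGTCA begins 65 bases before the start of AREG and occurs in 1.65% of 35116 RefSeq windows of this length. The core promoter motif TATAAA lies 29 bases before the start of AREG and 32 bases before that of EREG, and in 10.7% of windows. The motif GGGCGG, which SP1 binds, has 5 matches before HBEGF, 2 of which overlap, 3 before TGFA and 1 before AREG, and it occurs in 42.6% of windows. The TEAD motif GGAATG occurs before EREG alone among these ligands, and in 11.9% of windows. The AP-1 motif TGACTCA occurs before none of these 4 genes, and in 4.20% of windows. A match describes the letters and is not a bound site.

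In T24 treated with protodioscin, all 4 detected ligands were at lower levels than in untreated T24, HBEGF the most, and the receptors EGFR and ERBB2 were at slightly higher levels. ERBB3 was near 1 FPKM or below in T24, where its direction was fixed by the filter on low values. Values are FPKM, fragments counted per kilobase of a transcript and scaled to the size of the library. Differences are treated minus untreated on the log2(FPKM + 1) scale, which understates the change of low genes.

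HBEGF, the heparin-binding ligand, was at 10.7 FPKM in treated T24, against 16.5 FPKM in untreated T24, a difference of -0.58. It was the 1 member past a difference of 0.5 in either direction. Of 12193 genes compared in T24, 2.23% were lower and 1.03% higher by that much. EREG, which encodes epiregulin, was at 30.5 FPKM in treated and 39.8 FPKM in untreated T24 (-0.37). AREG, which encodes amphiregulin, was at 10.0 FPKM in treated and 12.1 FPKM in untreated T24 (-0.25). The levels of these 3 ligands in treated cells were 0.651, 0.766 and 0.828 times those in untreated cells. TGFA, which encodes transforming growth factor alpha, was at 14.0 FPKM in treated and 16.6 FPKM in untreated T24 (-0.23). EPGN, which encodes epigen, was listed at 0 in T24 with and without treatment, so it was not compared there. Thus 4 of 4 ligands compared in T24 were below 0, with a median difference of -0.31. Of all genes compared in T24, 44.0% were below 0, with a median difference of 0.025.

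Among the receptors in T24, ERBB3 stood at 1.01 FPKM in treated and 0.451 FPKM in untreated cells, a ratio of 2.25 in FPKM and a difference of 0.47 on the log2(FPKM + 1) scale. It was compared only because the treated library just reached the minimum of 1 FPKM, so its difference could lie only above 0. From the spacing of the lowest values and the longest transcript, about 313 reads lay behind the treated value and about 109 behind the untreated one. EGFR was at 32.0 FPKM in treated and 29.3 FPKM in untreated T24 (0.12), and ERBB2 at 33.9 and 31.0 FPKM (0.12). Both were thus above 0, as were 56.0% of all genes compared in T24. Of all genes compared in T24, 1.39% had a difference as low as that of HBEGF or lower. The central 95% of all genes ran from -0.47 to 0.38, and besides HBEGF and ERBB3 the other 5 members compared lay within it. Between these libraries 0 of the 7 members compared reached a 2-fold difference of 1 on this scale, as did 0.205% of all genes upward and 0.279% downward. With a pseudocount of 0.1 in place of 1, the difference of ERBB3 was 1.02. The treated T24 library was sequenced 1.27 times as deeply as the untreated one, and the part of depth in these differences was not tested.

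**Figure D1:**
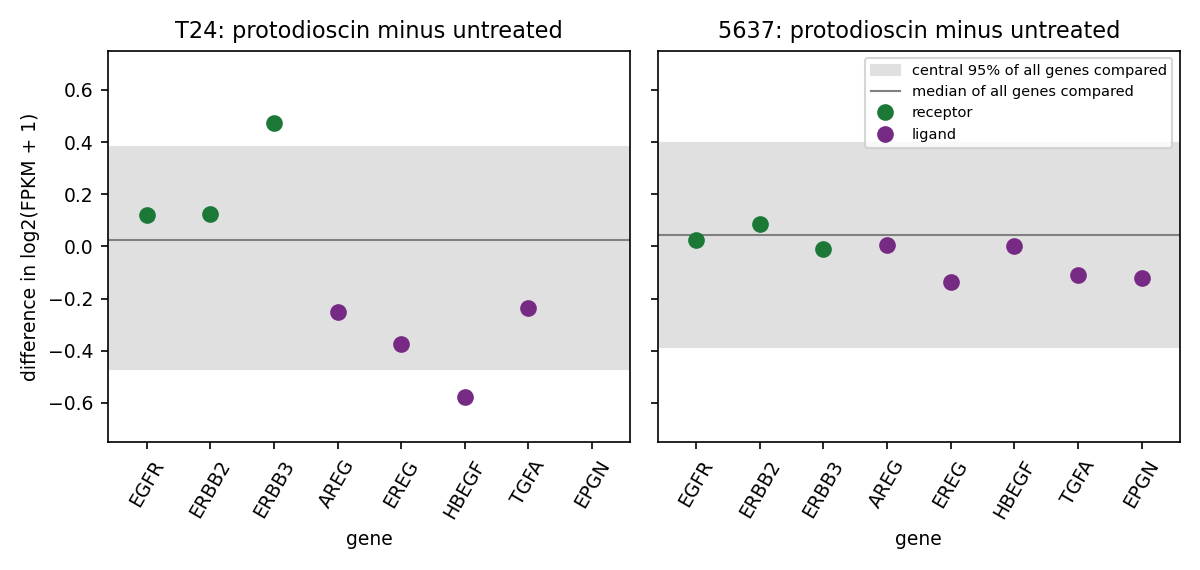
Treated minus untreated differences in log2(FPKM + 1) of receptors and ligands in T24 (left) and 5637 (right), 1 library per group. The grey band holds the central 95% of all genes compared in that line and the grey line is their median. In T24 the ligands lie below and EGFR and ERBB2 above 0, with HBEGF at -0.58 outside the band. ERBB3, at 0.47, was compared only through the treated library, and EPGN was not compared. In 5637 all 8 lie inside the band.

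In 5637 treated with protodioscin, levels of the members were close to those in untreated 5637. EGFR was at 76.0 FPKM in treated and 74.6 FPKM in untreated 5637, a difference of 0.025. ERBB2 was at 39.4 FPKM in treated and 37.0 FPKM in untreated cells (0.086). ERBB3 was at 8.42 FPKM in treated and 8.48 FPKM in untreated cells (-0.0092). All 3 receptor differences were thus smaller than 0.1.

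Among the ligands in 5637, AREG was at 66.3 FPKM in treated and 66.0 FPKM in untreated cells (0.0067). HBEGF was at 54.9 FPKM in treated and 54.8 FPKM in untreated cells (0.0011). EREG was at 20.6 FPKM in treated and 22.7 FPKM in untreated cells (-0.14), and was the lowest of the 8 differences in this line. TGFA was at 77.8 FPKM in treated and 84.2 FPKM in untreated cells (-0.11), and EPGN at 2.40 and 2.70 FPKM (-0.12). EREG and TGFA were the 2 ligands below 0 in both lines, as were 19.8% of the 11417 genes compared in both. EGFR and ERBB2 were above 0 in both, as were 39.2% of genes, and AREG, HBEGF and ERBB3 had opposite signs, as had 41.0%. The signs of AREG, HBEGF and EGFR in 5637 depended on the scaling between libraries, with values of -0.055, -0.061 and -0.037 after median-ratio scaling. In 5637, 4 of 8 members were below 0 and 4 above, beside 38.5% and 61.5% of 12635 genes compared and a median over all genes of 0.043. The central 95% of all genes in 5637 ran from -0.38 to 0.39. A difference of 0.5 was passed upward by 1.01% and downward by 1.11% of genes, and by 0 of the 8 members. A 2-fold difference was passed by 0.174% of genes upward and 0.214% downward.

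Over both lines, limma called no member for treatment, in a fit of line and treatment across 12893 genes with Benjamini-Hochberg adjustment. It called 0 of all genes (0% in either direction) at an adjusted p below 0.05. Without EPGN, the adjusted p of the members ranged from 0.495 for EREG to 0.720 for EGFR. EPGN was listed at 0 in T24 and entered the fit only through 5637. Its effect of -0.061 (adjusted p from limma 0.881) thus says nothing about T24. At an unadjusted p below 0.05 there were 2 members, beside 1227 genes or 9.52% of all genes tested. These were EREG (effect -0.26, SE 0.081, unadjusted p from limma 0.0195) and TGFA (-0.17, SE 0.067, unadjusted p from limma 0.0422). Both were lower in treated cells of 2 of 2 lines. The effect of HBEGF was -0.29 with a larger SE of 0.13, since its difference lay in T24, and that of ERBB3 was 0.23 (SE 0.14). The response of T24 minus that of 5637 was -0.58 for HBEGF and 0.48 for ERBB3, at unlike doses, and could not be tested with 1 library per group.

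Most members differed far more between the lines than between treated and untreated cells. The gap was smaller for ERBB2, with a line effect of -0.23 and treatment differences of 0.12 in T24 and 0.086 in 5637. It was also smaller for EREG, with a line effect of 0.66 and treatment differences of -0.37 and -0.14. EREG was the 1 member at a higher level in T24 than in 5637, and the other 7 were at lower levels in T24. AREG, TGFA, HBEGF and ERBB3 had the largest distances among members detected in both lines. In the same limma fit, 7 of the 7 members that reached 1 FPKM in both lines were called between the lines at an adjusted p below 0.05, 6 of them lower in T24. ERBB3 reached that level in T24 only in the treated library, at 1.01 FPKM. Its 5637 libraries alone would have brought it into the fit, so its call is weaker evidence than the others. Of all genes tested, 68.9% were called, 33.9% as lower in T24 and 35.1% as higher. These shares include genes that reached 1 FPKM in 1 line only. The error in that fit has 1 residual degree of freedom, in which any spread between cultures is mixed with a difference between the responses of the lines, and limma added 4.99 prior degrees of freedom drawn from all genes. The labels do not say whether cultures were independent, and any spread that these 4 libraries do not hold is outside its p-values.

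AREG in T24 was at 0.151 times its level in 5637 with treatment and at 0.184 times without it. The limma effect of AREG, T24 minus 5637, was -2.48 on the log2(FPKM + 1) scale (SE 0.083, adjusted p from limma 4.5e-06). TGFA in T24 was at 0.179 and 0.197 times its level in 5637, with and without treatment, an effect of -2.34 (SE 0.067, adjusted p from limma 2.8e-06). HBEGF was at 0.196 and 0.301 times (effect -1.96, SE 0.13). Of all genes tested, 2.09% were as far below 0 as AREG or farther, 2.39% as far as TGFA and 3.61% as far as HBEGF. EREG ran the other way, at 1.48 times its 5637 level in treated T24 and 1.75 times in untreated T24 (effect 0.66, SE 0.081, adjusted p from limma 0.00062). As far above 0 as EREG or farther were 15.6% of all genes tested. EREG lies next to AREG on chromosome 4, and these neighbours were thus ordered oppositely in the lines. EPGN, the third gene of that row, was listed at 0 in T24 and was at 2.40 and 2.70 FPKM in treated and untreated 5637. It entered the fit only through 5637, so its effect of -1.83, which ran from -0.59 to -4.73 with pseudocounts of 5 and 0.1, is left out of the count.

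EGFR in T24 was at 0.421 times its level in 5637 with treatment and 0.393 times without it (effect -1.27, SE 0.063, adjusted p from limma 1.9e-05). ERBB3 was at 0.120 times with treatment and 0.0532 times without it (effect -2.47, SE 0.14, adjusted p from limma 3.1e-05). The effect of ERBB3 ran from -1.23 with a pseudocount of 5 to -3.45 with one of 0.1 and was called under both. ERBB2 was nearest between the lines, at 0.861 and 0.838 times (effect -0.23, SE 0.063, adjusted p from limma 0.0182). Its call was lost after scaling to TPM (adjusted p from limma 0.099) and without a trend in the prior variance (0.0508), and its adjusted p over all alternatives ran from 0.0123 to 0.099. As far below 0 as EGFR or farther were 7.42% of all genes tested, as far as ERBB3 2.15% and as far as ERBB2 35.1%.

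**Figure D2:**
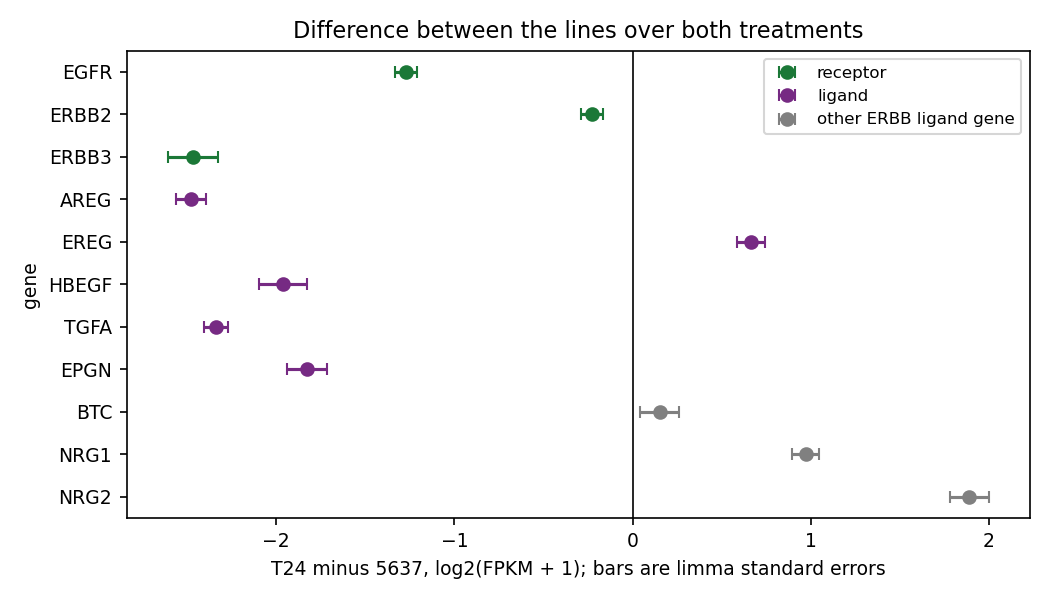
Limma effect of cell line, T24 minus 5637, on the log2(FPKM + 1) scale for receptors, ligands and the 3 other ERBB ligand genes in the fit. Points are estimates from 4 libraries and bars are standard errors. Only EREG among the 8 members lies right of 0, at 0.66, and AREG lies farthest left at -2.48.

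The order of levels within a line also differed. FPKM is per transcript length, so levels of different genes can be set beside each other. In T24, ERBB2, EGFR and EREG had the highest levels, and their ranges over the treated and untreated libraries overlapped (33.9 and 31.0, 32.0 and 29.3, and 30.5 and 39.8 FPKM). TGFA, HBEGF and AREG came next at 10.0 to 16.6 FPKM, where TGFA overlapped HBEGF and HBEGF overlapped AREG. ERBB3 and EPGN were last. In 5637, the order was TGFA, EGFR, AREG, HBEGF, ERBB2, EREG, ERBB3 and EPGN in both libraries, and no neighbours in it overlapped.

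**Figure D3:**
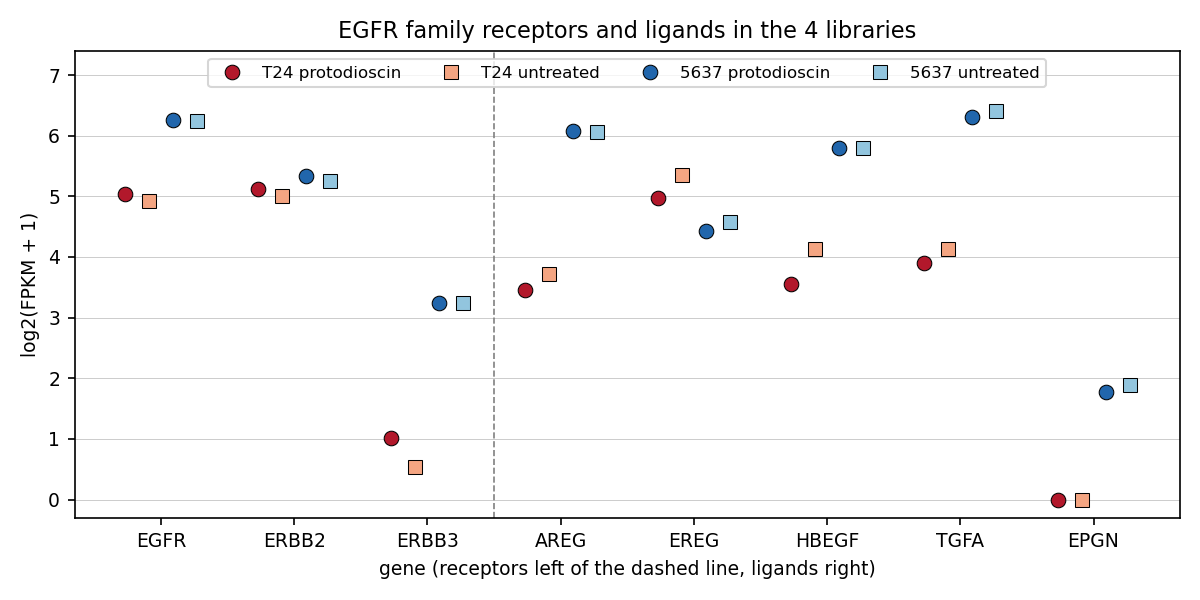
Level of each member, as log2(FPKM + 1), in treated and untreated T24 and in treated and untreated 5637, 1 library per point. EREG is the only gene whose T24 points lie above its 5637 points. EPGN is at 0 in T24.

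Summed over the 5 ligands, transcripts came to 65.2 FPKM in treated T24, against 85.0 FPKM in untreated T24, a change of -23.3%. The sum in 5637 was 222 FPKM in treated and 230 FPKM in untreated cells, a change of -3.66%. The 3 receptors summed to 66.9 FPKM in treated and 60.8 FPKM in untreated T24, and to 124 FPKM in treated and 120 FPKM in untreated 5637. Ligand transcripts per receptor transcript were 0.975 in treated T24, against 1.40 in untreated T24. They were 1.79 in treated 5637, against 1.92 in untreated 5637. With the other ERBB ligand and receptor genes described below counted in, they were 1.29 in treated and 1.80 in untreated T24. In 5637 they were then 1.87 in treated and 2.02 in untreated cells. The sums have no replicate and were not tested. The sum of 8 epithelial markers, mostly keratins, moved the same way, at 2056 FPKM in treated and 2606 FPKM in untreated T24, and at 4021 FPKM in treated and 4694 FPKM in untreated 5637. Its part in the ligand sums was not tested.

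EREG made up 46.8% of the ligand sum in treated T24 and also 46.8% in untreated T24. In 5637 it made up 9.27% in treated and 9.87% in untreated cells, where TGFA led with 35.1% and 36.5% and AREG followed with 29.9% and 28.6%. The share of HBEGF was 16.5% in treated and 19.4% in untreated T24. Of the receptor sum, ERBB2 held 50.7% in treated and 51.0% in untreated T24, and EGFR 47.8% and 48.2%. In 5637, EGFR held 61.4% in treated and 62.1% in untreated cells. The share of ERBB3 was 1.52% in treated and 0.741% in untreated T24, and 6.81% and 7.06% in treated and untreated 5637.

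**Figure D4:**
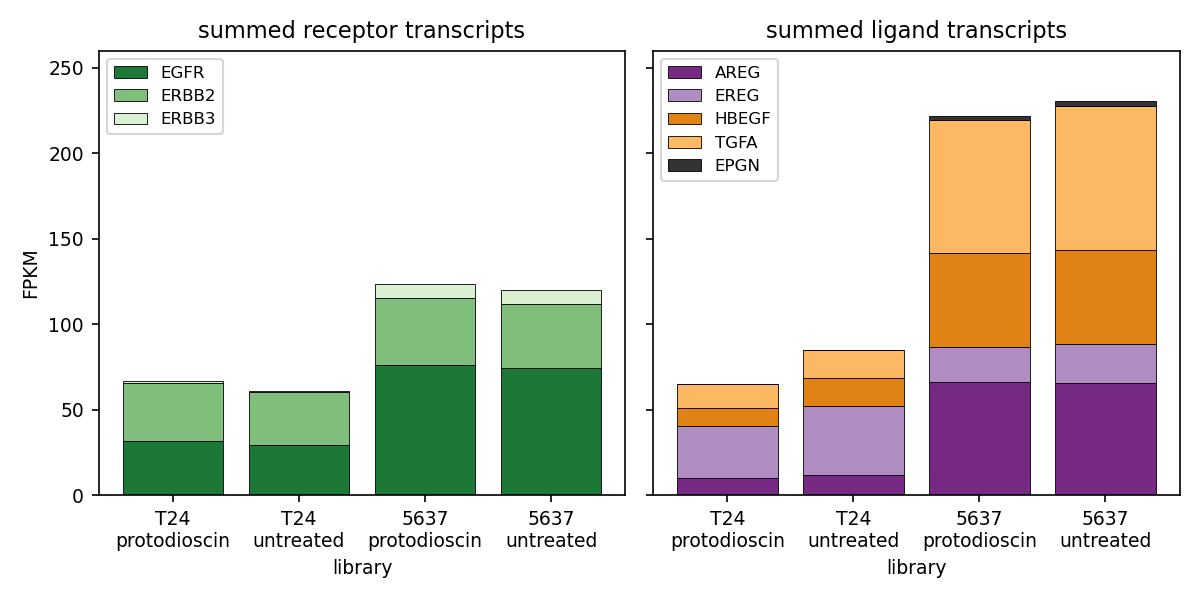
Stacked FPKM of the 3 receptors (left) and 5 ligands (right) in each of the 4 libraries. The ligand stack is 65.2 FPKM in treated and 85.0 FPKM in untreated T24, and 222 and 230 FPKM in treated and untreated 5637. EREG is the largest ligand segment in T24 and TGFA the largest in 5637.

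The other ERBB genes were given as a list of 7. NRG1, a neuregulin that binds ERBB3 and ERBB4, was at 16.6 FPKM in treated and 20.4 FPKM in untreated T24 (-0.28), and at 7.69 and 10.3 FPKM in treated and untreated 5637 (-0.38). It was lower in treated cells of 2 of 2 lines, with a limma effect of -0.33 (SE 0.078, unadjusted p from limma 0.00555, adjusted p 0.482), and thus did not pass the test. Between the lines, NRG1 was higher in T24 (effect 0.97, SE 0.078, adjusted p from limma 0.000114), the line with the lower ERBB3. With NRG1 and the other ligand genes counted in, the share of EREG in the ligand sum was 35.3% in treated and 36.3% in untreated T24. NRG2, another neuregulin, was at 3.23 and 3.04 FPKM in treated and untreated T24, and at 0.117 and 0.113 FPKM in treated and untreated 5637. It entered the fit only through T24, so its limma effect, T24 minus 5637, of 1.89 (SE 0.11) is given with no test. BTC, which encodes betacellulin and lies on the far side of AREG on chromosome 4, was at 0.905 to 1.28 FPKM in the 4 libraries. NRG4 was listed at 0 in T24 with and without treatment and was at 1.06 FPKM in treated and 0.825 FPKM in untreated 5637. ERBB4, the fourth receptor, was at 0.0304 to 0.0602 FPKM, and EGF and NRG3 were at 0.0474 FPKM or less. Of this list, 3 genes were compared in each line and 0 passed 0.5.

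Genes that release or mature the ligands, and TIMP3, which counters release, were compared as a list of 7. In T24, 5 of 6 compared were above 0, with a median of 0.11, and in 5637, 3 of 7 were above 0, with a median of -0.045. TIMP3 was the 1 gene below 0 in T24 and the lowest in 5637, so these counts mix opposite roles. Of all genes compared, 56.0% were above 0 in T24 and 61.5% in 5637. ADAM17, the main sheddase of AREG, EREG, HBEGF and TGFA, was at 11.9 FPKM in treated and 9.71 FPKM in untreated T24 (0.27), and at 16.8 and 15.8 FPKM in treated and untreated 5637 (0.079). Its exons overlap IAH1 on the other strand, and such reads cannot be told apart without strand. The same limit holds for NRG4 above, which overlaps FBXO22. It also holds for USP8 (USP50), PIK3CA (KCNMB3), HGS (ARL16) and PTPN1 below, among other genes named. FRMD8, which stabilises the sheddase complex, was at 28.3 and 24.5 FPKM in treated and untreated T24 (0.20). TIMP3, an inhibitor of ADAM17, was at 41.4 FPKM in treated and 49.0 FPKM in untreated T24 (-0.24), and at 56.7 FPKM in treated and 83.1 FPKM in untreated 5637 (-0.54). TIMP3 was the 1 gene of this list past 0.5. The rhomboid pseudoprotease RHBDF1 differed by 0.012 in T24 and 0.073 in 5637, and the rhomboid protease RHBDL2 by -0.16 in 5637.

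Adaptors and proximal signalling genes (12) had a median of 0.13 in T24 and 0.090 in 5637, with 8 of 12 above 0 in each line, beside 56.0% of all genes in T24 and 61.5% in 5637. The docking protein GAB1 was at 2.39 FPKM in treated and 1.66 FPKM in untreated T24 (0.35), and the exchange factor SOS1 at 8.52 and 6.72 FPKM (0.30). Their lowest members in T24 were GAB2 (-0.16) and STAT3 (-0.046). In 5637, GAB2 and PIK3CB were highest (0.24 and 0.21) and SHC1 and PIK3CA lowest (-0.059 and -0.051). SHC1 shares exons with PYGO2 on its own strand, so its value is uncertain.

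Genes of receptor downregulation (17) had 12 members above 0 in T24, with a median of 0.030, and 7 in 5637, with a median of -0.014. The shares above 0 over all genes compared were 56.0% in T24 and 61.5% in 5637. USP8, a deubiquitinase that acts on internalised EGFR, was at 10.8 FPKM in treated and 7.71 FPKM in untreated T24 (0.44), and at 7.81 and 6.48 FPKM in treated and untreated 5637 (0.24). The endocytic adaptor EPN1 was at 30.1 and 22.1 FPKM in treated and untreated T24 (0.43), and shares exons with AC008749.1 on its own strand. PTPN1 and HGS were lowest in T24 (-0.057 and -0.056). CBLB, an E3 ligase for activated receptors, was at 3.27 FPKM in treated and 4.41 FPKM in untreated 5637 (-0.34), with LRIG3 next (-0.26). GRB2, an adaptor on both lists, had a difference of 0.11 in 5637.

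ERK output and feedback genes (17), many of which rise when EGFR signals, lay on both sides of 0. In T24, 9 of 17 were below 0, with a median of -0.022; in 5637, 13 of 17 were below 0, with a median of -0.12. Of all genes compared, 44.0% were below 0 in T24 and 38.5% in 5637. DUSP4, a phosphatase that limits ERK, differed by -0.52 in T24 and -0.31 in 5637. MYC differed by -0.73 in T24, and IER2 by -0.29 in 5637. The early genes EGR1 (0.67 and 0.61 in T24 and 5637) and FOS (0.60 and 0.24) were higher. At an unadjusted p below 0.05 from limma there were 7 of these 17, beside 9.52% of all genes, and 0 passed at an adjusted p. The 7 lay on both sides, with EGR1 and FOS higher and DUSP4, MYC and IER2 among the lower. The same count was 1 of 3 for the other ERBB genes and 1 of 7 for ligand release. For adaptors it was 2 of 12 and for receptor downregulation 2 of 17. The lists were chosen with earlier results of these data known. Between the lines, 13 of the 17 were called as lower in T24 and 2 as higher in the same limma fit, beside 33.9% and 35.1% of all genes. The other lists were mixed or went the other way. Adaptors had 1 of 12 lower in T24 and 5 higher, and receptor downregulation 7 of 17 lower and 6 higher. Ligand release had 4 of 7 lower and 2 higher. Other ERBB genes had 0 of 3 lower and 2 higher, where NRG2 entered only through T24. None of the 5 lists held a gene called by limma for treatment or at 2-fold in either line.

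**Figure D5:**
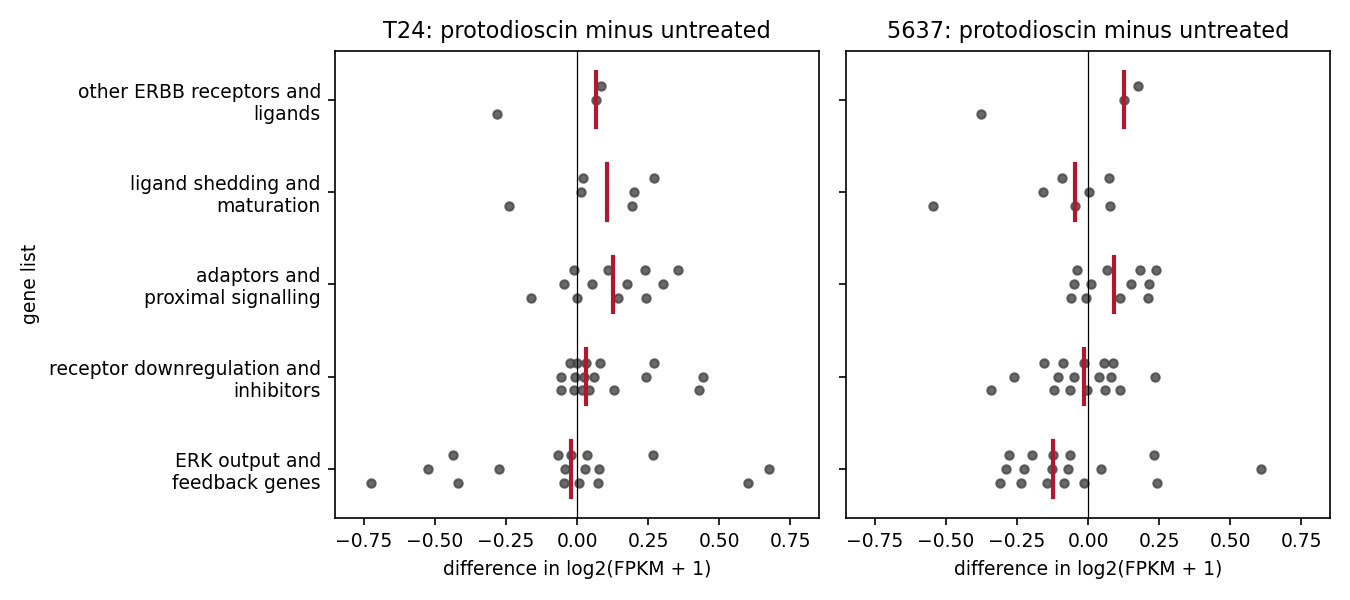
Treated minus untreated differences in log2(FPKM + 1) of single genes in the 5 pathway lists, in T24 (left) and 5637 (right). Each point is 1 gene compared in that line, its place within a row has no meaning, and red bars are medians. Medians lie between -0.12 and 0.13, and the ERK list is the widest, from -0.73 to 0.67 in T24.

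The patterns nearest to EGFR and AREG over the 4 libraries were found by Euclidean distance of log2(FPKM + 1) centred on the mean of each gene, among 12575 genes. Nearest to EGFR were the pseudogene ZNF826P (distance 0.031), MRPS24 (0.031) and ZNF711 (0.053). MRPS24, a mitochondrial ribosomal protein that shares exons with a neighbour, was at 36.1 and 33.2 FPKM in treated and untreated T24, and at 83.7 and 84.5 FPKM in treated and untreated 5637. Nearest to AREG were SH3GL3 (0.083), ARHGDIB (0.13) and SETD5 (0.15). SH3GL3 was at 0 and 0.111 FPKM in treated and untreated T24, and at 4.93 and 4.67 FPKM in treated and untreated 5637, a far wider ratio between the lines in FPKM than that of AREG. ARHGDIB was at 26.0 and 28.8 FPKM in treated and untreated T24, and at 146 and 159 FPKM in treated and untreated 5637.

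Over all 4 libraries, between 11941 and 12405 genes reached 1 FPKM, and 1 read on a transcript of 1 kb was worth 0.0170 to 0.0244 FPKM. Epithelial markers were at 1 FPKM or more for 6 of 8 genes in T24 and for 8 of 8 in 5637. KRT5 was listed at 0 in T24, and UPK3A was listed at 0 in all 4 libraries. CDH1 was at 0 and 0.016 FPKM in treated and untreated T24, and at 72.3 and 69.6 FPKM in treated and untreated 5637. Of 7 urothelial markers, 3 reached 1 FPKM in T24 and 5 in 5637. The leukocyte marker PTPRC was at or near 0 throughout, and the leukocyte sum of 11.4 and 7.85 FPKM in treated and untreated T24 lay mostly in CD68. The sums of endothelial markers were 0.992 and 1.98 FPKM in treated and untreated T24 and 0.123 and 0.171 FPKM in treated and untreated 5637. The sums of fibroblast markers were 1.08 and 1.09 FPKM in T24 and 8.06 and 7.31 FPKM in 5637, in the same order. The 5637 sums lay mostly in COL1A1, at 7.52 FPKM in treated and 6.81 FPKM in untreated 5637, and DCN and LUM were at 0. Fewer cells of a type and less RNA per cell cannot be told apart in such bulk samples.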

How the data were processed

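RNA-seq was done in 4 libraries with TruSeq RNA v2 kits, which do not mark strand, and paired reads of 150 bases, per the labels' protocols. The authors deposited FPKM per gene. The submitters' processing notes name Trimmomatic, HISAT2, StringTie and GRCh38. Their settings, versions and gene annotation were not given in the sources used here. StringTie estimates how reads split among overlapping transcripts, so genes sharing exons depend on each other. Read totals were not in the table. The lowest values gave relative depths, with untreated T24 at 1, of 1.27 in treated T24, 1.17 in treated 5637 and 1.43 in untreated 5637. FPKM values are not counts, and no count test was used.

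The scale of analysis was log2(FPKM + 1), in Python 3.11.15 (pandas 2.3.3). A gene was compared within a line when either library of the line reached 1 FPKM; size rules were 1 and 0.5. limma 3.58.1 (R 4.3.3) was fitted with trended prior variance and terms for line and treatment on genes reaching 1 FPKM in 2 or more libraries, with Benjamini-Hochberg adjustment at 0.05. It was tested on simulated data. Exon overlap came from GENCODE 29 with bedtools 2.31.1. Besides the 8 members, the text names the 2 genes furthest in each direction and line per list, all other ERBB genes, and the 3 genes nearest to EGFR and to AREG. Members, lists and tests were chosen with earlier results of these data known. Alternatives were pseudocounts of 0.1 and 5, no filter or one at 5 FPKM, TPM, median-ratio and quantile scaling, no trend, no exon-sharing genes, and fits lacking 1 term.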

Additional observations from a re-analysis of the deposited data

Results flagged for a closer look

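The treated minus untreated differences of ERBB3, AREG and HBEGF had opposite signs in the lines, as did those of 41.0% of genes compared in both. ERBB3 differed by 0.47 in T24 and by -0.0092 in 5637, a gap of 0.48 (T24 minus 5637). HBEGF differed by -0.58 in T24 and by 0.0011 in 5637, a gap of -0.58. AREG differed by -0.25 in T24 and by 0.0067 in 5637, a gap of -0.26. These gaps were not tested, since each rests on 4 libraries with 1 per group, and the lines received 60 and 70 µM. The 5637 values of all 3 genes were under 0.01 in size, so the opposite sign carries little weight, and with median-ratio or TPM scaling AREG and HBEGF were below 0 in both lines.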

How the results depend on the processing

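With TPM, median-ratio and quantile scaling, the 4 ligands compared in T24 stayed below 0 and EGFR and ERBB2 above 0 there. The other pseudocounts and filters cannot change the sign of a difference, so they did not test it. HBEGF in T24 ranged from -0.62 to -0.45 and ERBB3 from 0.14 with a pseudocount of 5 to 1.02 with one of 0.1; ERBB3 missed the filter at 5 FPKM and, after median-ratio scaling, the one at 1 FPKM. In 5637, 5 ligands were below 0 with TPM or median-ratio scaling, against 3 in the values reported, and 1 receptor was above 0, against 2. For treatment over both lines, limma called 0 members under every alternative and 2 genes in all with a pseudocount of 0.1 (BLOC1S5-TXNDC5 and AC024075.1) or without exon-sharing genes (SMARCB1 and AC024075.1); these genes were named after their values were seen. Between the lines, 6 of the 7 members at 1 FPKM or more in both lines kept their call under every alternative that tested them and ERBB2 lost its call under 2. With the other ERBB genes counted in, the share of EREG was 35.3% in treated and 36.3% in untreated T24, against 46.8% in both. The limma fit paired treated and untreated libraries by cell line, as a term; the labels give no replicate numbers by which to pair them otherwise. The cause of these shifts was not tested. About 313 and 109 reads lay behind ERBB3 in treated and untreated T24, and 138 and 190 behind EPGN in treated and untreated 5637, against 616 or more for the other 6 members in every library.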
